A study of Mus musculus with 17 samples.

Results

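The serotonergic content of dissected mouse brainstem tissue was described across all 17 libraries of the series, split at a Tph2 level of 60 TPM (a unit of transcript abundance corrected for transcript length, with the same total in every library). The sides were chosen by the measured TPM of Tph2 in these libraries, whatever the treatment. Tph2 stood at 60 TPM or more in 10 libraries, called Tph2-rich here, and below it in 7, called Tph2-poor. The libraries came from male C57BL/6 mice given vindeburnol (5 libraries) or VB-127, its derivative (6 libraries), at 20 mg/kg in water by daily oral gavage over 5 days, or left untreated as controls (6 libraries). Tissue labelled locus coeruleus was frozen 24 hours after treatment, and poly(A) RNA was sequenced. The labels give no age, do not say that each library is a separate animal, and name no group that received gavage without a compound. The Tph2-rich side held 2 vindeburnol, 4 VB-127 and 4 control libraries, and the Tph2-poor side held 3 vindeburnol, 2 VB-127 and 2 control libraries.

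Serotonergic neurons of the raphe nuclei make serotonin from tryptophan through tryptophan hydroxylase, encoded by Tph2, and aromatic amino acid decarboxylase, encoded by Ddc. The vesicular monoamine transporter (Slc18a2) loads serotonin into vesicles, the serotonin transporter (Slc6a4) takes it back up, and tetrahydrobiopterin, made through Gch1, is the cofactor of the hydroxylase. Fev, the ETS-family factor also known as Pet-1, is a defining transcription factor of these neurons. The dorsal raphe lies in the midline close to the locus coeruleus, the main noradrenergic nucleus of the brain. Because the split was made on Tph2 in the same libraries, differences between its sides are given as descriptions. Counts of genes that limma called on this split are printed as background, and nothing is read from them.

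The 3 defining serotonergic genes are Tph2 (ENSMUSG00000006764), Slc6a4 (ENSMUSG00000020838) and Fev (ENSMUSG00000055197). Their promoter windows, 300 bases spanning the start of the gene, are shown for reference. A link between these sequences and the levels of the genes was not tested. The sequences are from RefSeq on GRCm38.p6, an earlier build than the GRCm39 of the files, and are given 5′ to 3′ on the strand of the gene. Capitals mark GGAA or its reverse complement TTCC, the core that ETS-family factors bind.
Tph2, chr10:115184973-115185272, minus strand: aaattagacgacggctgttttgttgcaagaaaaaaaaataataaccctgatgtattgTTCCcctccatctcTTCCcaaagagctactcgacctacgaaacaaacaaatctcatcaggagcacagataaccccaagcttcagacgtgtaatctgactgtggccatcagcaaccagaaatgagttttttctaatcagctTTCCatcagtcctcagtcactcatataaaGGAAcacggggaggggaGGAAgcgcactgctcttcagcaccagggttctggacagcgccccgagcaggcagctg
Slc6a4, chr11:76998347-76998646, plus strand: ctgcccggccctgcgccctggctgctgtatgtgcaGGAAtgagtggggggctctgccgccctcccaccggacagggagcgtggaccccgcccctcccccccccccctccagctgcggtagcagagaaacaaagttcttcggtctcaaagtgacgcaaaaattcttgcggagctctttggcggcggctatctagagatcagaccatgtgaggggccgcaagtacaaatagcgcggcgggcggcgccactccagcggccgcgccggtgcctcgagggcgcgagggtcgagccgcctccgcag
Fev, chr1:74885359-74885658, minus strand: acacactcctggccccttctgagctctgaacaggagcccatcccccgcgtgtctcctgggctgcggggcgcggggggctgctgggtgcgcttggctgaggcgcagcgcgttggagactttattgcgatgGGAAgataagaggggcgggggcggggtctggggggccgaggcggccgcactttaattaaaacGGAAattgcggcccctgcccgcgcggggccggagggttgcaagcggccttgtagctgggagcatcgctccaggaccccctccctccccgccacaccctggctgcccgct
The window of Tph2 held the core 5 times, that of Slc6a4 once and that of Fev 2 times, counted on both strands. The core is common, being in 96% of 32851 promoter windows of the same length. The longer motif CCGGAA, which contains it, was in none of these windows and in 14.9% of all. A TATAAA motif was in the window of Tph2, directly before a GGAA core, and in neither of the others, against 13.6% of all windows.

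Tph2 ranged from 69.3 to 129 TPM in the Tph2-rich libraries, with a median of 85.3 TPM, against 1.08 to 58.4 TPM in the Tph2-poor libraries, with a median of 18.1 TPM. The libraries nearest the threshold were VB-127 replicate 3 just inside it at 69.3 TPM and control replicate 3 just outside it at 58.4 TPM, so the 2 sides meet with little gap. The other markers were also lower in value on the poor side, Slc6a4 without overlap and Fev with it. Slc6a4 was at 37.7 to 63.6 TPM in rich libraries (median 47.5) and 0.218 to 36.5 TPM in poor ones (median 9.64), and the 10 rich libraries were also the 10 highest for Slc6a4. Fev was at 4.61 to 11.4 TPM in rich libraries (median 8.54) and 0.25 to 7.45 TPM in poor ones (median 3.08), with 7 of 10 rich libraries above the highest poor one.

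**Figure D1:**
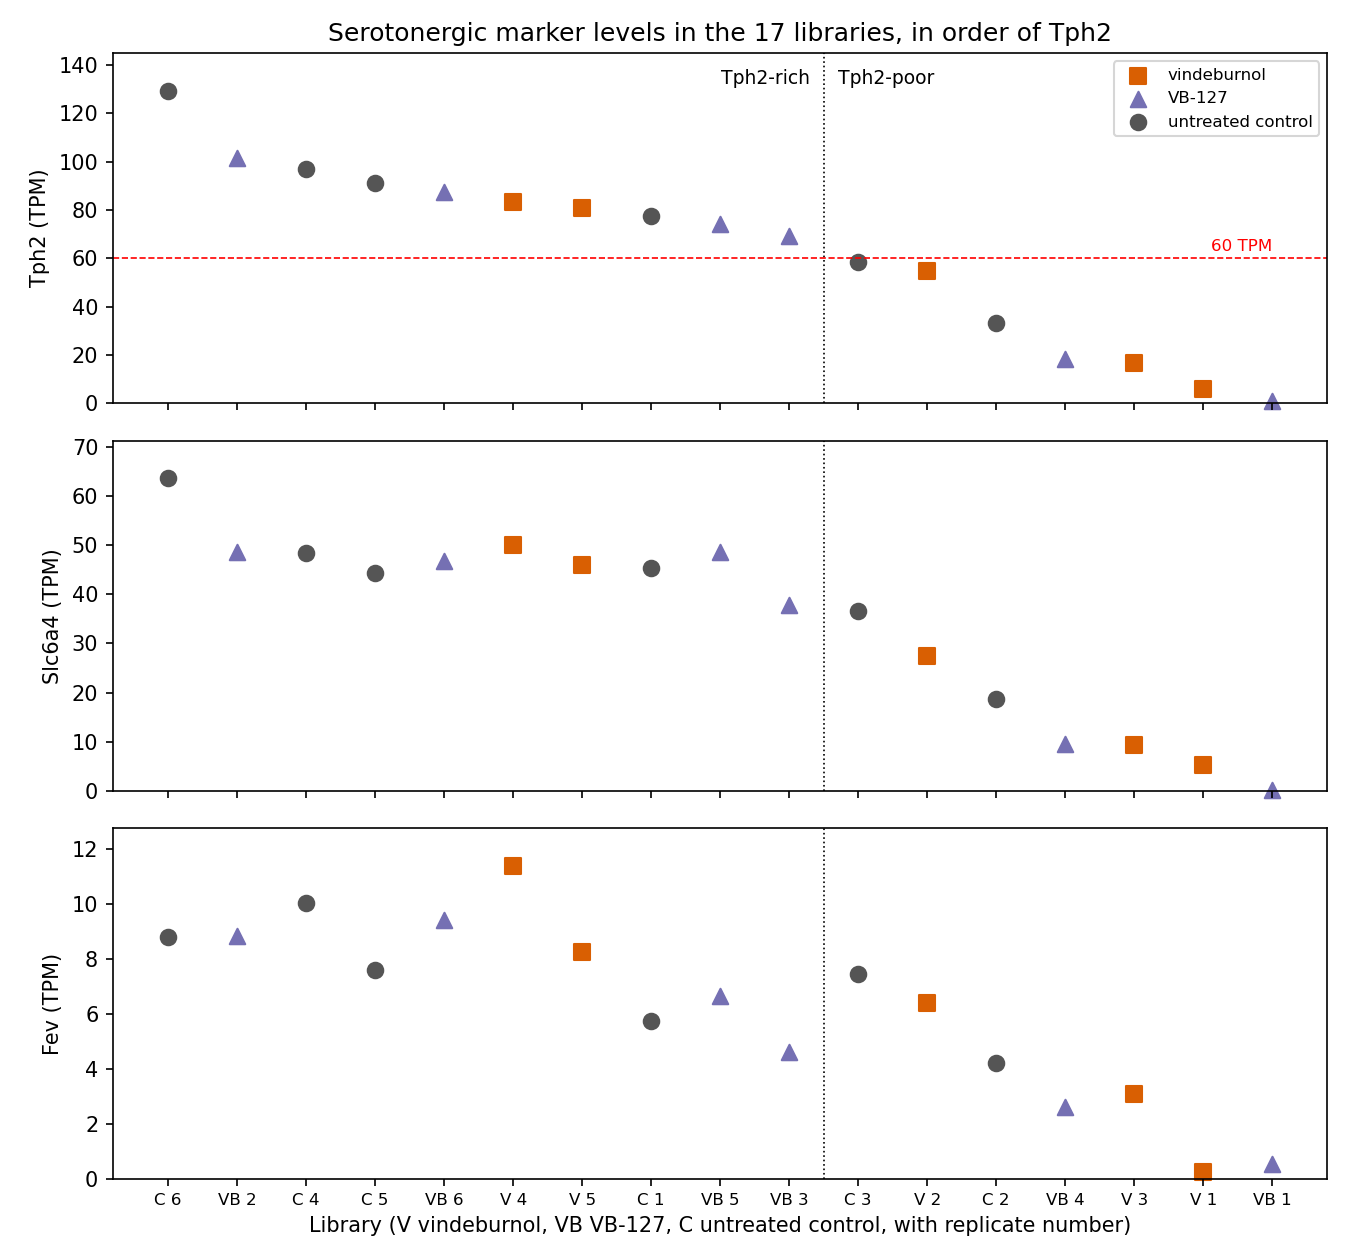
Level of Tph2, Slc6a4 and Fev in TPM (vertical axes) in each of the 17 libraries, ordered by Tph2 along the horizontal axis, with colour and shape for treatment. Tph2 falls to 1.08 TPM in VB-127 replicate 1 at the right, the level of Slc6a4 follows it with no rich library below a poor one, and Fev overlaps between the sides.

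In ratio to Tph2, Slc6a4 varied little among rich libraries and more widely among poor ones. The Tph2-rich libraries had 47.8 to 65.4 TPM of Slc6a4 per 100 TPM of Tph2 (median 53.9), against 20.2 to 89.5 in the Tph2-poor libraries (median 55.6). The 2 extremes were VB-127 replicate 1 (20.2) and vindeburnol replicate 1 (89.5), the libraries with the least Tph2 (1.08 and 5.82 TPM). Fev per 100 TPM of Tph2 had a median of 8.85 in rich and 12.8 in poor libraries, with overlapping ranges of 6.65 to 13.7 and 4.30 to 49.2.

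**Figure D2:**
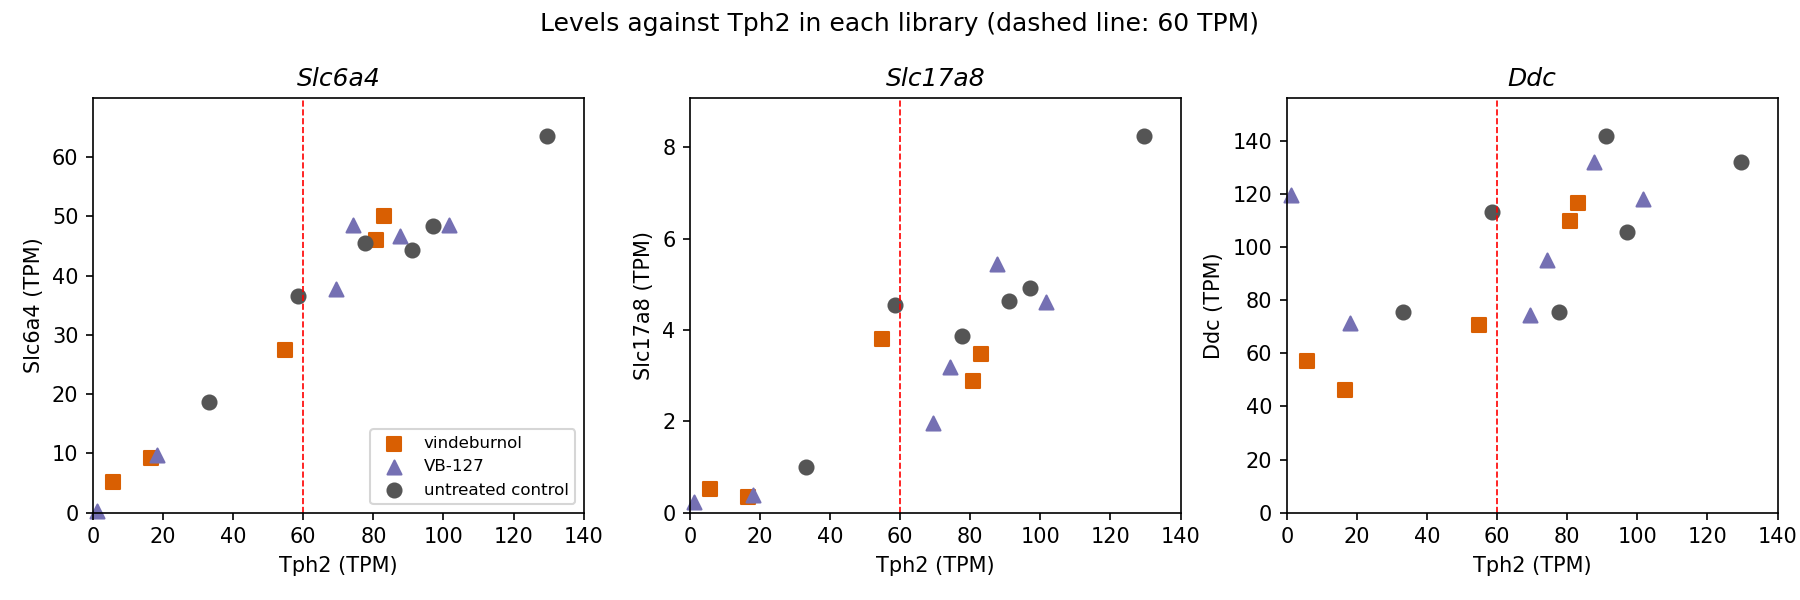
Level of Slc6a4, Slc17a8 and Ddc (vertical axes, TPM) against the level of Tph2 (horizontal axis, TPM), 1 point per library. Slc6a4 is higher with Tph2 up to VB-127 replicate 5 and then stays at 44.3 to 50.1 TPM while Tph2 runs between 74.2 and 102 TPM, whereas Ddc is at 120 TPM in VB-127 replicate 1, where Tph2 is at 1.08 TPM.

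Some libraries stood apart on other markers. Control replicate 1, on the rich side, had the highest level of Dbh, the noradrenaline-synthesising hydroxylase, at 18.9 TPM, and the lowest of Slc6a3, the dopamine transporter, at 1.04 TPM. It was at 0 for Ucn and at 17.6 TPM for Cartpt, both peptides of the Edinger-Westphal nucleus. Control replicate 6 followed for Dbh at 12.3 TPM, and in the other 15 libraries Dbh was at most 2.57 TPM, so the markers of the labelled tissue were low in most libraries. VB-127 replicate 1, with the least Tph2, had the most Slc6a3 at 124 TPM and the most Th (tyrosine hydroxylase) at 154 TPM. Read depth is not carried by TPM and is unknown. Libraries listed 21016 to 26993 genes above 0, and the non-coding RNA Bc1 made up 16.7 to 35.3% of the total in rich libraries and 16.1 to 29.3% in poor ones, with medians of 22.3 and 22.1%.

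Differences between the sides are on the scale of log2(TPM + 1), as Tph2-rich minus Tph2-poor with treatment in the model, with standard errors (SE), where given, from a limma fit to all genes. Of 16152 genes other than Tph2 that reached 1 TPM in at least 5 libraries, 0 passed an adjusted p of 0.05 in limma (0%), and 0 did so without control replicates 1 and 6. At an unadjusted p under 0.05 there were 600 genes (3.71%), 193 higher and 407 lower (1.19 and 2.52%), and the split was 462 higher and 311 lower with median-ratio scaling. Since the rule used this contrast, these shares are background for the counts below. On the deposited TPM scale 30.9% of genes lay above 0 and 69.1% below, with a median of -0.058. This shift depended on scaling, since the median was 0.0037 with median-ratio scaling and -0.0068 with quantile normalization, so the shares and medians of lists hold for the deposited scale. Within every treatment group on its own, 7.36% of genes were higher and 28.6% lower in rich than in poor libraries. In bulk tissue, fewer serotonergic cells and less RNA per cell cannot be told apart.

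Genes that synthesise and handle serotonin were mostly higher in value in Tph2-rich libraries. Of the 10 tested besides Tph2, 9 had a difference above 0, 8 were higher in all 3 treatment groups, and the median was 0.37. Slc6a4 differed most, by 2.20 (SE 0.50), and by 1.59 without VB-127 replicate 1. Its within-group differences were 2.01 for vindeburnol, 3.68 for VB-127 and 0.91 for controls. No rich library overlapped a poor one for Slc6a4, which was so for 0.0124% of genes in this direction.

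The cofactor genes came next. Gchfr, the feedback regulator of GTP cyclohydrolase, was at 9.56 to 24.1 TPM in Tph2-rich libraries (median 15.5) and 1.81 to 11.4 TPM in Tph2-poor ones (median 7.30), a difference of 1.19 (SE 0.28), with 9 of 10 rich libraries above the highest poor one. Gch1, the cyclohydrolase that starts tetrahydrobiopterin synthesis, was at 4.38 to 8.74 TPM in rich libraries (median 7.12) and 2.59 to 5.74 TPM in poor ones (median 3.99), a difference of 0.65 (SE 0.14). Only control replicate 1 and VB-127 replicate 3 fell below the highest poor library for Gch1. Pts, which takes part in the synthesis of the cofactor, and Qdpr, which recycles it, had values of -0.14 (SE 0.10) and 0.02 (SE 0.08). Pts was -0.05 without vindeburnol replicate 4, and Qdpr turned to -0.03 without VB-127 replicate 4 and to -0.0081 with quantile normalization.

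Ddc and Slc18a2, which dopaminergic and noradrenergic neurons also use, differed less than Slc6a4, Gchfr and Gch1 and overlapped widely. Ddc was at 74.3 to 142 TPM in Tph2-rich libraries (median 113) and 46.3 to 120 TPM in Tph2-poor ones (median 71.4), a difference of 0.44 (SE 0.18). Slc18a2 was at 26.0 to 59.7 TPM in rich libraries (median 39.6) and 11.3 to 45.3 TPM in poor ones (median 22.4), a difference of 0.55 (SE 0.22). The top poor libraries were VB-127 replicate 1 for Ddc (120 TPM) and control replicate 3 for Slc18a2 (45.3 TPM), and VB-127 replicate 1 was next for Slc18a2 at 41.4 TPM. With the Slc6a3 level as a further covariate the differences were 0.55 (SE 0.12) for Ddc and 0.68 (SE 0.15) for Slc18a2. Gch1, which catecholamine neurons also need, was then at 0.73 (SE 0.11).

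Breakdown and low-affinity uptake showed small differences. Maob, the monoamine oxidase found in serotonergic neurons and glia, was at 24.0 to 37.2 TPM in Tph2-rich libraries (median 32.5) and 23.6 to 31.7 TPM in Tph2-poor ones (median 27.2), a difference of 0.24 (SE 0.09). Maoa, the other oxidase, had a value of 0.03 (SE 0.11), which was 0.07 without vindeburnol replicate 2 and -0.02 without VB-127 replicate 1. Slc22a3, a low-affinity monoamine transporter, had a value of 0.29 (SE 0.15) at a median of 1.34 TPM in rich and 0.982 TPM in poor libraries.

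Transcription factors of serotonergic development divided into those that went with Tph2 and those that did not. Of 9 tested, 5 were above 0, the same 5 in all 3 treatment groups, and the median was 0.25. Fev differed by 1.28 (SE 0.33), with within-group differences of 1.68 for vindeburnol, 1.79 for VB-127 and 0.42 for controls. En1 and En2, the engrailed homeodomain factors that maintain midbrain and rostral hindbrain monoamine neurons, differed by 0.65 (SE 0.15) and 0.39 (SE 0.15). En1 was at 9.20 to 16.4 TPM in Tph2-rich libraries (median 14.7) and 4.91 to 13.2 TPM in Tph2-poor ones (median 8.14), so that 8 of 10 rich libraries stood above every poor one.

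Lmx1b, a LIM homeodomain factor needed for serotonergic fate and shared with dopaminergic neurons, differed by 0.42 (SE 0.20), and by 0.24 without vindeburnol replicate 4. Gata2 was at 0.25 (SE 0.18), or 0.16 without control replicate 5, while its relative Gata3 was at -0.13 (SE 0.15), or -0.02 without control replicate 3 and -0.20 without VB-127 replicate 1. The ventral patterning factors Nkx2-2, Foxa1 and Foxa2 had values of -0.0013 (SE 0.13), -0.21 (SE 0.23) and -0.14 (SE 0.21). Foxa1 and Foxa2 were at -0.09 and -0.0072 without control replicate 1, the library with the least of both, and at -0.35 and -0.23 without vindeburnol replicate 5, and Nkx2-2 was above 0 with median-ratio scaling and quantile normalization.

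Among receptors and co-transmission genes of serotonergic neurons, Slc17a8 stood out. It encodes the vesicular glutamate transporter VGLUT3, which many dorsal raphe serotonergic neurons carry. Slc17a8 was at 1.97 to 8.25 TPM in Tph2-rich libraries (median 4.24) and 0.227 to 4.54 TPM in Tph2-poor ones (median 0.526), a difference of 1.24 (SE 0.28). 5 of the 7 poor libraries lay below every rich one, and the 2 that did not, control replicate 3 (4.54 TPM) and vindeburnol replicate 2 (3.80 TPM), were those with the most Tph2 on the poor side.

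The serotonin autoreceptor gene Htr1a, whose product restrains the firing of serotonergic neurons, was at 5.89 to 10.3 TPM in Tph2-rich libraries (median 7.93) and 4.32 to 9.87 TPM in Tph2-poor ones (median 7.30), with a value of 0.19 (SE 0.14), or 0.11 without VB-127 replicate 1. Htr5b, a receptor gene of dorsal raphe neurons in rodents, was at 0.834 to 1.78 TPM in rich and 0.237 to 1.24 TPM in poor libraries. It differed by 0.38 (SE 0.13). Among poor libraries only control replicate 3 reached 1 TPM, so Htr5b passed the filter through the rich side and its difference is uncertain. The terminal autoreceptor genes Htr1b and Htr1d, the orexin receptor gene Hcrtr1, the nitric oxide synthase gene Nos1 and the adrenergic receptor gene Adra1b ran from -0.14 for Htr1b to 0.20 for Nos1, each within 1 SE of 0. All 5 moved by over 1.5 times when 1 library was left out, for instance to 0.06 for Htr1d without control replicate 6. Across the 8 tested of 9 genes the median was 0.19 and 3 were higher in all 3 groups; Met did not reach the filter. The 6 serotonin receptor genes of target neurons had a median of -0.08, with Htr2c at -0.16 (SE 0.12) and Htr2a at -0.16 (SE 0.16).

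**Figure D3:**
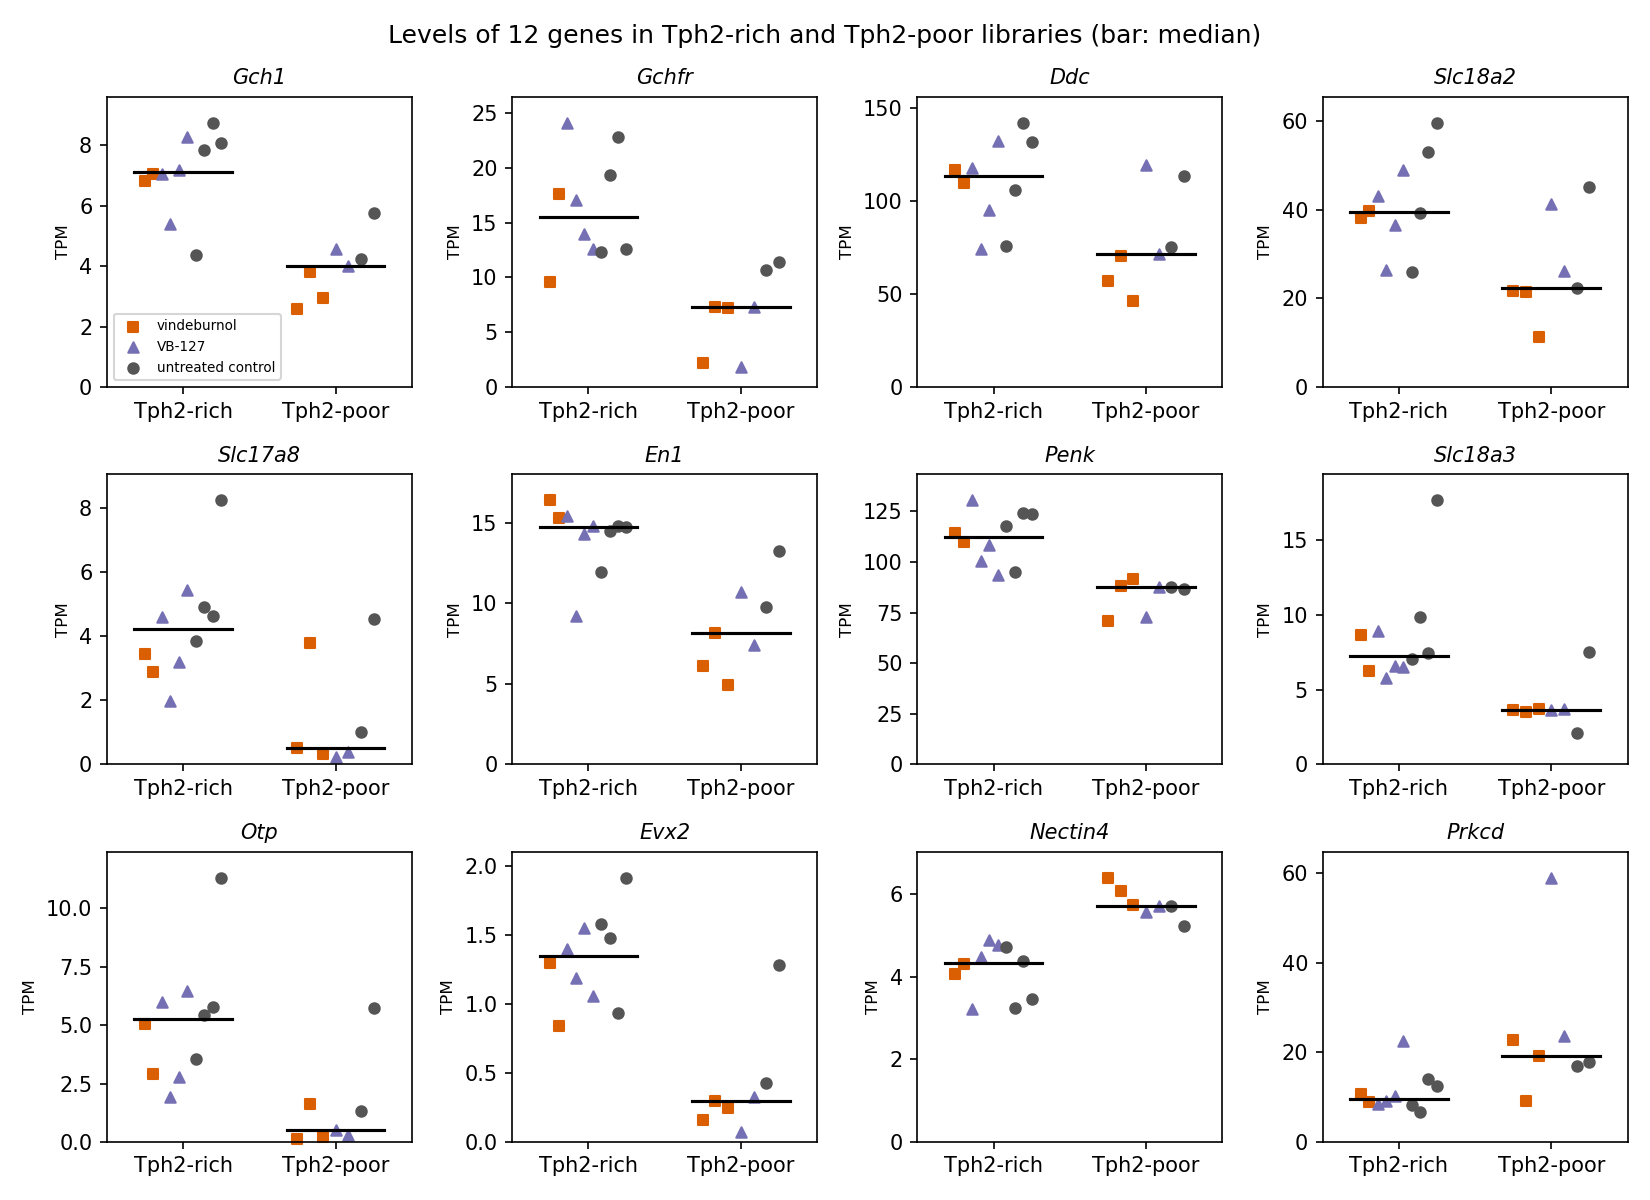
Levels in TPM (vertical axes) of 12 genes in the 10 Tph2-rich and 7 Tph2-poor libraries, with 1 point per library, colour and shape for treatment and a bar at the median. Penk is higher and Nectin4 lower in every rich library than in any poor one, while Ddc and Slc18a2 overlap.

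Outside the serotonergic lists, Penk, which encodes the enkephalin precursor, was the 1 gene with every rich library above every poor one. Such separation held for 2 of 16152 genes (0.0124%), the other being Slc6a4, and is given as a description. Penk was at 93.6 to 130 TPM in Tph2-rich libraries (median 112) and 70.6 to 91.5 TPM in Tph2-poor ones (median 87.5). The difference was 0.41 (SE 0.08), with 0.43, 0.42 and 0.39 within vindeburnol, VB-127 and controls, and 0.38 to 0.44 with any 1 library left out. Other neuropeptide genes higher in rich libraries were Sst (somatostatin), with a difference of 0.43 (SE 0.11), and Trh (thyrotropin-releasing hormone), with 0.79 (SE 0.19). Their medians were 213 against 171 TPM for Sst and 6.56 against 3.90 TPM for Trh, in rich against poor libraries. The 15 brainstem neuropeptide genes had a median of -0.03, 6 above and 9 below 0, and the 6 above 0 were higher in all 3 treatment groups. That is 40% of the list, against 7.36% of all genes, and 1 of 15 (6.67%) was lower in all 3, against 28.6%.

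Otp, a homeodomain factor best known from hypothalamic neurons, was at 1.93 to 11.3 TPM in Tph2-rich libraries (median 5.25) and 0.131 to 5.72 TPM in Tph2-poor ones (median 0.505), a difference of 1.43 (SE 0.29). The poor library at 5.72 TPM was control replicate 3, just under the threshold, and the next was at 1.63 TPM. Cyp26b1, which degrades retinoic acid, differed by 0.81 (SE 0.17), Nxph4, a neurexin ligand, by 0.59 (SE 0.12), and C1ql4, a C1q-related synaptic protein, by 0.64 (SE 0.14). For Nxph4 and C1ql4, 9 of 10 rich libraries stood above the highest poor one.

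Cholinergic genes had the highest list median, 0.66 over 5 tested of 6, and all 5 were higher in rich than in poor libraries within each treatment group. Slc18a3, the vesicular acetylcholine transporter gene, was at 5.79 to 17.7 TPM in Tph2-rich libraries (median 7.24) and 2.08 to 7.54 TPM in Tph2-poor ones (median 3.67), a difference of 0.90 (SE 0.20). Slc5a7, the choline transporter gene, differed by 0.84 (SE 0.19), Chat, which makes acetylcholine, by 0.66 (SE 0.19) and Prph, the filament gene of motor and other peripherally projecting neurons, by 0.56 (SE 0.14). Ache, which breaks acetylcholine down, had a value of 0.11 (SE 0.08), or -0.017 with replicate number as a block. The highest rich library for Slc18a3 and Slc5a7 was control replicate 6, at 17.7 and 18.9 TPM, and without control replicates 1 and 6 the differences were 0.83 and 0.70. The summed level of the list was 140.6 to 224 TPM in rich and 131 to 166 TPM in poor libraries, and Isl1, a marker of motor neurons, was at 0.209 to 1.25 TPM in rich and 0.125 to 1.46 TPM in poor libraries.

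Of 5 tested noradrenergic genes 4 were above 0 and 1 below, with a median of 0.16. The 1 below was the transcription factor gene Tfap2b at -0.54, or -0.36 without control replicate 2. Dbh was at 0.228 to 18.9 TPM in Tph2-rich libraries (median 1.60) and 0 to 1.19 TPM in Tph2-poor ones (median 0.0469), a difference of 1.36 (SE 0.38) and of 0.95 without control replicates 1 and 6. Adra2a, the adrenergic autoreceptor gene, differed by 0.25 (SE 0.11). Slc6a2, the noradrenaline transporter gene, and Phox2a did not reach the filter, and their highest rich values were 8.94 and 1.26 TPM against 0.569 and 0 TPM in poor libraries. The summed noradrenergic list was at 55.4 to 98.2 TPM in rich and 49.7 to 70.4 TPM in poor libraries. The part of noradrenergic tissue in the differences above was not tested.

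Dopaminergic genes as a list lay near the background. The median of the 10 tested was -0.05, with 3 above and 7 below 0, against -0.058 for all genes. Slc6a3 was at 1.04 to 73.8 TPM in Tph2-rich libraries (median 44.7) and 15.2 to 124 TPM in Tph2-poor ones (median 45.6), with a value of -0.49 (SE 0.69) that was -0.09 without control replicate 1. Th was at 17.8 to 117 TPM in rich (median 74.5) and 28.9 to 154 TPM in poor libraries (median 63.8), with a value of -0.02. That value was 0.21 without VB-127 replicate 1 and -0.20 without vindeburnol replicate 5. The summed dopaminergic list had a median of 442 TPM in rich and 362 TPM in poor libraries, the other direction from the list median above. Slc10a4, a vesicular protein gene of monoamine and cholinergic neurons, was the highest of the list at 0.55 (SE 0.22). The Edinger-Westphal peptides Cartpt, Ucn, Cck and Nucb2 were all below 0, with a median of -0.42. Cartpt was at -0.52 (SE 0.42) and Ucn at -0.58 (SE 0.62), and without control replicate 1 they were at -0.25 and -0.17.

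Genes listed as landmarks of position went both ways. Evx2, a homeodomain gene of the pontine and pretectal list, was at 0.837 to 1.91 TPM in Tph2-rich libraries (median 1.34) and 0.0691 to 1.28 TPM in Tph2-poor ones (median 0.298), a difference of 0.70 (SE 0.15). Pax8 differed by 0.58 (SE 0.17), at 0.999 to 2.96 TPM in rich and 0.429 to 1.49 TPM in poor libraries. On the lower side were Gbx2, a homeodomain gene of the midbrain and isthmus list, with -0.92 (SE 0.33) and Lhx2 with -0.54 (SE 0.25). Gbx2 was at 0 to 3.82 TPM in rich libraries (median 0.579) and 0.383 to 6.25 TPM in poor ones (median 3.18). The Hox genes, markers of the hindbrain, did not reach the filter, and their 11 members summed to 0 to 18.4 TPM in rich (median 0.187) and 0 to 2.70 TPM in poor libraries (median 0.0714).

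**Figure D4:**
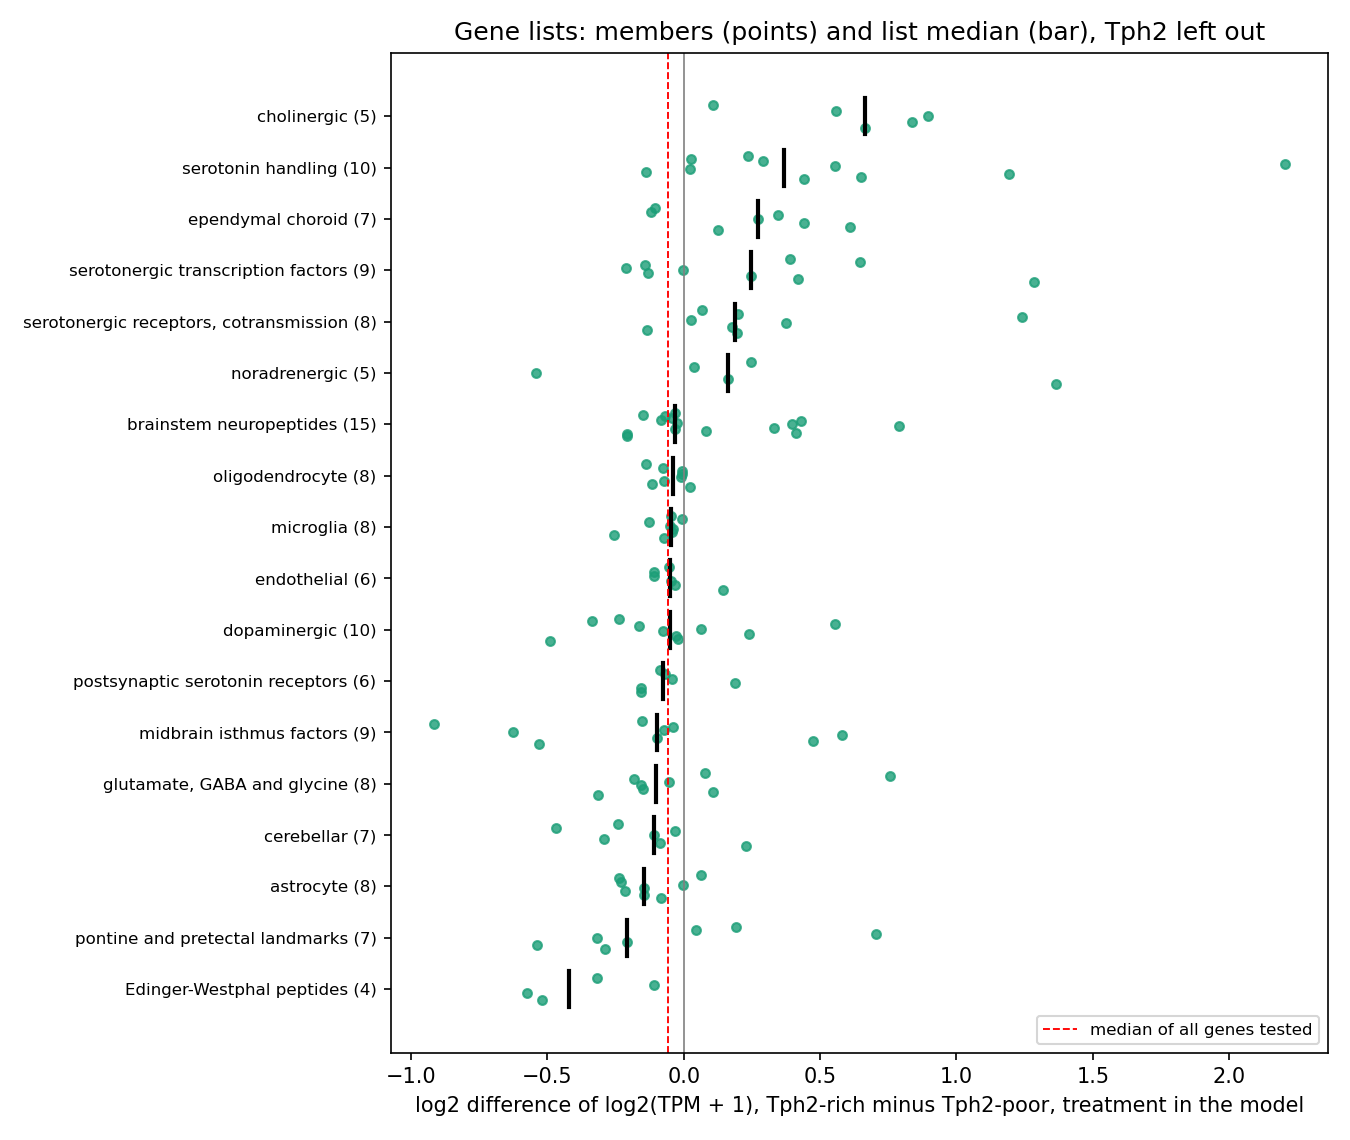
Log2 difference in log2(TPM + 1), Tph2-rich minus Tph2-poor, for each tested member (points) and the list median (bars) of 18 gene lists, with the number tested in brackets. The cholinergic (0.66), serotonin-handling (0.37) and ependymal and choroid (0.27) lists have the highest medians. The Edinger-Westphal list has the lowest (-0.42), and the median of all genes is -0.058.

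Genes lower in Tph2-rich libraries were led by Ramp3, a partner of calcitonin-family receptors, at 1.35 to 9.07 TPM in rich libraries (median 4.15) and 5.13 to 24.3 TPM in poor ones (median 9.08), a difference of -1.05 (SE 0.23). Tnnt1, a troponin T gene, differed by -1.02 (SE 0.25), Prkcd, which encodes protein kinase C delta, by -1.01 (SE 0.26), and Rgs16, a regulator of G-protein signalling, by -0.78 (SE 0.18). VB-127 replicate 1 had the highest Prkcd at 59.0 TPM, and without it Prkcd was at -0.76, Tnnt1 at -0.81 and Ramp3 at -0.86. Prkcd, Tnnt1, Ramp3 and Gbx2 had the same highest library on each side, VB-127 replicate 6 among rich and VB-127 replicate 1 among poor libraries. Which tissue these genes came from was not tested. Ntng1, a netrin relative that guides axons, differed by -0.58 (SE 0.16). Nectin4, an adhesion gene, was at 3.21 to 4.88 TPM in rich libraries (median 4.34) and 5.22 to 6.39 TPM in poor ones (median 5.72). It did not overlap between the sides, and neither did Mgat2, an N-glycan synthesis gene, at 14.0 to 17.3 TPM in rich and 17.7 to 21.4 TPM in poor libraries (0.0124% of genes in this direction).

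Other genes named on the lower side ranged from -0.77 for Chrna1os to -0.33 for the acyl-CoA dehydrogenase gene Acad9. Between them were Ctxn3, Synpo2, Myh7b, Ndst2, Acat3 and Xlr3a, at -0.70, -0.54, -0.51, -0.39, -0.49 and -0.59. Chrna1os is named as an antisense transcript, and no source used here states if strand entered the counting, so its reads and those of its partner may not be separate. Xlr3a and Acat3 have close copies, between which reads can be split, and are uncertain.

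Of the glial and vascular lists, all but the astrocyte list lay near the median of all genes. Oligodendrocyte, microglial and endothelial lists had medians of -0.04, -0.05 and -0.05, and the summed oligodendrocyte level had a median of 8332 TPM in rich and 8298 TPM in poor libraries. Astrocyte genes had a median of -0.15, with the GABA transporter gene Slc6a11 at -0.24 (SE 0.11) and the gap junction gene Gja1 at -0.23 (SE 0.11). Of the 8 astrocyte genes, 4 were lower in all 3 treatment groups (50%, against 28.6% of all genes) and 1 was higher (12.5%, against 7.36%). The glutamate, GABA and glycine list had a median of -0.10. Within it Slc17a6, the VGLUT2 gene, was at -0.31 (SE 0.15) and Slc6a5, the glycine transporter gene of hindbrain inhibitory neurons, at 0.76 (SE 0.33). Slc6a5 was highest in control replicate 6 at 27.3 TPM, and without control replicates 1 and 6 it was at 0.62. The cerebellar list had a median of -0.11, with Zic1 at -0.47 (SE 0.19). Ependymal and choroid genes had a median of 0.27 over 7 tested, led by the ciliary gene Ccdc153 at 0.61 (SE 0.29), with widely overlapping sides. Of these, 5 were above 0 and 2 below, Folr1 at -0.12 and Clic6 at -0.11. Single libraries weighed on several members. Tmem212 went from 0.44 to 0.21 without vindeburnol replicate 1 and Ttr from 0.34 to 0.14 without vindeburnol replicate 5. Folr1 turned to 0.10 without control replicate 2.

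Likeness to Tph2 was also measured as the Spearman rho across all 17 libraries after removing treatment means, which is a description since the points are bulk libraries of mixed tissue and Tph2 chose the split. Slc6a4 (0.983) and Fev (0.936) were most alike, followed by Slc17a8 (0.882), Otp (0.868), Irs4 (0.865), Dao (0.833), Asb4 (0.811) and Gchfr (0.806). Irs4, an insulin receptor substrate gene, was at 3.43 to 5.91 TPM in Tph2-rich libraries (median 4.20) and 1.68 to 4.34 TPM in Tph2-poor ones (median 2.64). Dao, which encodes D-amino acid oxidase, differed by 0.69 (SE 0.20) and Asb4, a ubiquitin ligase adaptor gene, by 0.38 (SE 0.13). The lowest were Sys1 (-0.789), Nectin4 (-0.787), Armcx5 (-0.765), Tnnt1 (-0.762) and Ramp3 (-0.752).

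With log2(Tph2 + 1) as a continuous term in place of the split, limma called 19 genes (0.118%), 15 of them with a positive slope (0.0929%), a description again since the rule used Tph2. Slc6a4 had a slope of 0.93 (SE 0.03) per unit of log2 Tph2, Fev 0.56 (SE 0.06), Gchfr 0.49 (SE 0.06), Otp 0.49 (SE 0.09) and Slc17a8 0.47 (SE 0.07). The negative slopes were Prkcd at -0.40 (SE 0.06), Tnnt1 at -0.40 (SE 0.06), Ramp3 at -0.37 (SE 0.07) and Tagap at -0.27 (SE 0.05). Without VB-127 replicate 1 the count was 6, all with positive slopes, with Slc6a4, Fev, Slc17a8 and Otp among them. Gchfr was then not called, though its slope was 0.48, against 0.49 with all libraries. Prkcd, Tnnt1, Ramp3 and Tagap were not called either, with slopes from -0.41 to -0.33. Nothing is read from which calls were lost. Tagap, which averaged 0.763 TPM, was named after its values were seen. Penk, which separated the sides without overlap, was not among the 19.

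The labels allow a test of whether Tph2 differed between treatments, and no difference passed it. Tph2 was at 5.82, 16.6, 54.9, 80.9 and 83.2 TPM in vindeburnol libraries, 1.08, 18.1, 69.3, 74.2, 87.5 and 102 TPM in VB-127 libraries and 33.2, 58.4, 77.7, 91.0, 97.1 and 129 TPM in controls. The 4 lowest values were all in treated libraries, and all groups overlapped. On the log2(TPM + 1) scale the means were 5.09 ± 1.59 for vindeburnol (SD, n = 5), 5.14 ± 2.18 for VB-127 (SD, n = 6) and 6.24 ± 0.67 for controls (SD, n = 6). The difference from controls was -1.15 for vindeburnol (exact permutation p = 0.152, adjusted over 3 comparisons 0.422) and -1.10 for VB-127 (exact permutation p = 0.281, adjusted 0.422), both two-sided. Vindeburnol minus VB-127 was -0.05 (exact permutation p = 0.909, adjusted 0.909). Without VB-127 replicate 1, VB-127 differed from controls by -0.29, and without vindeburnol replicate 1, vindeburnol differed by -0.57. The share of rich libraries was 2 of 5 for vindeburnol, 4 of 6 for VB-127 and 4 of 6 for controls. Two-sided Fisher exact tests gave p = 0.567 for vindeburnol set against controls and again for vindeburnol set against VB-127, and p = 1 for VB-127 set against controls. Adjusted over the 3 comparisons, these were 0.851, 0.851 and 1.

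Placing the split in the treatment model gave smaller errors for Slc6a4 and Fev, which follow Tph2 closely, so that the split takes up part of the difference being estimated. For vindeburnol against controls, Slc6a4 had a log2 difference of -0.37 (SE 0.61) with the split and -0.96 (SE 0.91) without it, and Fev -0.25 (SE 0.40) with it and -0.60 (SE 0.56) without it. For VB-127 against controls, which have equal numbers on each side, the Slc6a4 difference was -1.06 in both, with an SE of 0.57 with the split and 0.87 without. Without the split, none of these passed limma's test, with adjusted p of 0.804 for Slc6a4 and 0.799 for Fev after vindeburnol and 0.652 for Slc6a4 after VB-127.

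Across all genes with the split in the model, limma called 1 of 16153 genes between VB-127 and control libraries (0.00619%), 0 between vindeburnol and control libraries (0%) and 0 between the compounds (0%). At an unadjusted p under 0.05 these contrasts held 1612, 1024 and 511 genes, against 1648, 1319 and 546 without the split. The called gene was the predicted gene Gm28119, at 3.95 ± 0.729 TPM after VB-127 (SD, n = 6) and 1.01 ± 0.512 TPM in controls (SD, n = 6). Its log2 difference was 1.33 (SE 0.19, limma adjusted p = 0.0228). It was above the control mean in 6 of 6 VB-127 libraries, 5 of 5 vindeburnol libraries and 4 of 6 controls. After vindeburnol it was at 2.13 ± 0.839 TPM (SD, n = 5), with a log2 difference from controls of 0.68 (SE 0.21, limma adjusted p = 0.699). Its own difference between Tph2-rich and Tph2-poor libraries was 0.14 (SE 0.17). The call was lost in 9 of the 17 fits that left out 1 library.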

How the data were processed

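Gene-level TPM values, 1 deposited file per library, were used as the authors made them. Poly(A) RNA was sequenced with a strand-keeping kit, per the labels' protocols. The submitters' processing notes name STAR, Salmon and GRCm39/mm39, and no source used here states if strand entered the counting. Each file lists 78298 gene IDs, and 317 symbols occur more than once. A table of the whole series with 17 columns was not used, and its values did not differ from the files. TPM holds no read depth, so no counting error can be given.

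Values were transformed as log2(TPM + 1), which understates changes of low genes, and 16153 genes with at least 1 TPM in 5 libraries were tested. Genes low on the Tph2-poor side, such as Htr5b, Dbh, Evx2 and Pax8, could pass this filter through the Tph2-rich side alone. limma 3.58.1 in R 4.3.3 fitted Tph2-rich against Tph2-poor libraries with treatment as a covariate, and treatment contrasts with the split in the model, using empirical Bayes moderation with trend and robust settings. P-values were adjusted by the Benjamini-Hochberg method at 0.05. Exact permutation and Fisher tests and the tables used Python 3.11.15, numpy 2.4.6, scipy 1.17.1 and pandas 2.3.3. Separate animals per library are not stated in the labels, so p-values measure the spread between these samples. The fitting script was tested on simulated data.

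Named genes were the members of 3 serotonergic lists, the 15 genes per direction with the smallest p at a mean of 2 TPM or more, predicted names left out, and the 8 most and 5 least like Tph2. Up to 4 members of each other list, all members of lists of 4 or fewer, Bc1 and genes called between treatments were added. The 19 lists held 162 genes. The split, lists and rule were chosen with earlier results of these data known. Alternatives covered the pseudocount, filter, scaling, Tph2 threshold, covariates, replicate block and each library left out. Some genes that the rule names are not reported here.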

Additional observations from a re-analysis of the deposited data

Results flagged for a closer look

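A library was set apart where its gap to the next library was large against the range of its side of the split (Dixon's criterion). Of 222 groups of values, for 111 genes, 21 met it, and chance alone gives about 1 in 20.

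Control replicate 1 was the lowest Tph2-rich library for 3 transcription factors of the ventral midline and midbrain. Foxa1 was at 0.0539 TPM in it, Foxa2 at 0.258 TPM and Pitx3 at 0.137 TPM, with the next libraries at 1.04, 1.81 and 1.77 TPM. It was also lowest for the peptides Cartpt (17.6 TPM, next 131 TPM) and Ucn (0 TPM, next 22.7 TPM).

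Control replicate 4 was the lowest Tph2-rich library for Maob (24.0 TPM, next 29.9 TPM), Gata3 (5.62 TPM, next 9.64 TPM) and the astrocyte transporters Slc6a11 (121 TPM, next 182 TPM) and Slc1a3 (50.8 TPM, next 66.3 TPM).

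Control replicate 6 was the highest Tph2-rich library for the cholinergic genes Slc18a3 (17.7 TPM, next 9.85 TPM) and Slc5a7 (18.9 TPM, next 9.28 TPM). It was also highest for Slc6a5 (27.3 TPM, next 6.87 TPM) and Crh (6.42 TPM, next 3.88 TPM).

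On the Tph2-poor side, control replicate 3, the library nearest the threshold, was highest for Slc18a3 (7.54 TPM, next 3.72 TPM), Dbh (1.19 TPM, next 0.290 TPM) and Evx2 (1.28 TPM, next 0.428 TPM). Vindeburnol replicate 3 was lowest there for Htr2a (2.16 TPM, next 3.48 TPM), and vindeburnol replicate 1 highest for the myelin gene Mal (335 TPM, next 236 TPM).

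Among Tph2-rich libraries, vindeburnol replicate 4 was lowest for Pts (21.0 TPM, next 30.0 TPM) and highest for Met (1.72 TPM, next 0.594 TPM). VB-127 replicate 6 was highest for Synpo2 (2.76 TPM, next 1.94 TPM).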

How the results depend on the processing

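The count of genes called between Tph2-rich and Tph2-poor libraries was 0, and 0 with any 1 library left out, against 6 at a threshold of 40 TPM, 19 with log2 Tph2 as a continuous term and 1 with Slc6a3 as a covariate. Since Tph2 defines each of these contrasts, the counts are descriptions. Among alternatives chosen after seeing the data, the continuous term gave 6 without VB-127 replicate 1, 16 without control replicate 1 and 16 per 10 TPM on the linear scale. Of 112 named genes, 16 changed sign at 80 TPM, 6 at 40 TPM, 7 with the continuous term, 6 with the replicate block, 3 with median-ratio scaling, 3 with quantile normalization and 0 to 3 with 1 library left out.

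For Tph2 itself, leaving out 1 library gave -1.47 to -0.57 for vindeburnol minus controls, -1.41 to -0.29 for VB-127 minus controls and -0.86 to 0.54 for vindeburnol minus VB-127. The last was 0.0464 with a pseudocount of 0.1. The share of rich libraries was 6.67 percentage points higher for vindeburnol than for VB-127 at 80 TPM, against -26.7 at 60 TPM. The cause was not tested.

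The 1 call for VB-127 against controls was 0 with a pseudocount of 0.1, median-ratio scaling, no filter and the replicate block, and 0 to 3 with 1 library left out. It was 0 without VB-127 replicate 2, 4, 5 or 6 or control replicate 1, 2, 4, 5 or 6, and 3 without control replicate 3. The cause was not tested.

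The labels do not say whether replicate numbers pair the samples. Of 16 same-numbered pairs, 1 had a correlation over 0.1 (range -0.195 to 0.111, median -0.0423). These correlations also carry differences in tissue content, so they do not settle whether samples were paired. With the replicate block, 0 genes were called between rich and poor libraries and 0 for VB-127 against controls. The median difference between rich and poor libraries was then -0.127, against -0.058 without the block. Depth is unknown, so low genes carry a counting error that cannot be given.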
